A study of Mus musculus with 6 samples.

Results

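The immediate early and MAPK feedback genes described here are 35 genes, taken by symbol from a count table of 18697 genes, and all 35 were in the table. They comprise 27 early response genes (the Fos, Jun, Egr, Nr4a, Klf, Ier and Etv factors, Atf3, Maff, Myc, Zfp36, Btg2 and Rgs2) and 8 feedback genes (5 Dusp phosphatases, 2 Sprouty genes and Spred1). The counts come from bulk RNA sequencing of mouse prostate in experimental autoimmune prostatitis (EAP), a mouse model of chronic prostatitis with an autoimmune attack on the gland. All 6 libraries are from EAP mice, and no prostate without EAP is among them. One group received VUF11207, a small molecule that activates CXCR7, an atypical receptor for chemokines encoded by Ackr3, at 5 mg per kg per day by intraperitoneal injection for 14 days, and the other received an equal amount of the vehicle DMSO on the same schedule. The strain, age and antigen are not given in the labels. Each group held 3 libraries, and no label ties a library to a mouse. The p-values therefore rest on the spread of these samples, which may in part be technical.

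Immediate early genes are switched on within minutes of a growth factor, cytokine or stress signal without the need for new protein synthesis. Receptor signals reach them through the kinase cascade RAS, RAF, MEK and ERK, whose targets include the serum response factor partners and the CREB factors that bind their promoters. The same cascade induces its own brakes. Dual-specificity phosphatases (Dusp) remove phosphate from ERK, JNK or p38, and Sprouty and Spred proteins act upstream on RAS and RAF. In prostate, AP-1 and Egr1 are known as early responders to androgen withdrawal, injury and inflammation, and many of these transcripts also respond to the handling of tissue.

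Total counts per library ranged from 20308018 to 33368058. Levels are given as CPM, library-size-scaled counts with TMM factors (trimmed mean of M values), and per-library values are listed in the order unnumbered vehicle library, vehicle replicates 2 and 3, then VUF11207 replicates 1, 2 and 3. The unnumbered vehicle library is a column that matched the vehicle group but no sample's own file. The specimens differed widely in tissue content. A list of 9 seminal vesicle genes, all found and none at 0 counts in any library, accounted for 0.700%, 64.5% and 16.3% of counts with vehicle, and for 28.1%, 3.11% and 3.61% with VUF11207. Markers of luminal epithelium, the cell type that lines prostate glands (7 of 7 found), summed to between 1817 and 2733 CPM, so epithelium was present in each library. Whether this list tells prostate from seminal vesicle epithelium was not tested. It summed to 2373 CPM in vehicle replicate 2. A list of 7 prostate secretory genes summed to between 40400 and 190100 CPM. Because seminal vesicle transcripts took most of vehicle replicate 2, its TMM factor was 0.426, and values that rest on the choice of scaling are named as such below. In bulk tissue, fewer cells of a type and less RNA per cell cannot be told apart.

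None of the early response or feedback genes differed between VUF11207 and vehicle at an adjusted p under 0.05. Of the 35 genes 32 passed the filter on low counts, and 0 of these 32 were called by edgeR's quasi-likelihood test with Benjamini-Hochberg adjustment over 13753 genes, where 0% of all genes were called. DESeq2 also called 0 of the 32, beside 0.0291% of all genes, and limma voom called 0. Before adjustment 2 genes had an edgeR p under 0.05, beside 1.43% of all genes. These were Rgs2, with higher values under VUF11207 (0.953% of all genes in that direction), and Ier3, with lower values (0.473%). Among the 32 genes 26 had a negative log2 fold change and 6 a positive one (18.8%, beside 44.7% of all genes), with a median of -0.22, against a median of -0.04 and 55.3% negative over all genes tested. With scaling by library totals alone the split was 19 negative and 13 positive, with a median of -0.07 against 0.14 over all genes. The estimates were smaller than their standard errors for 21 of the 32 genes, and the 95% interval held 0 for 30 of them.

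**Figure D1:**
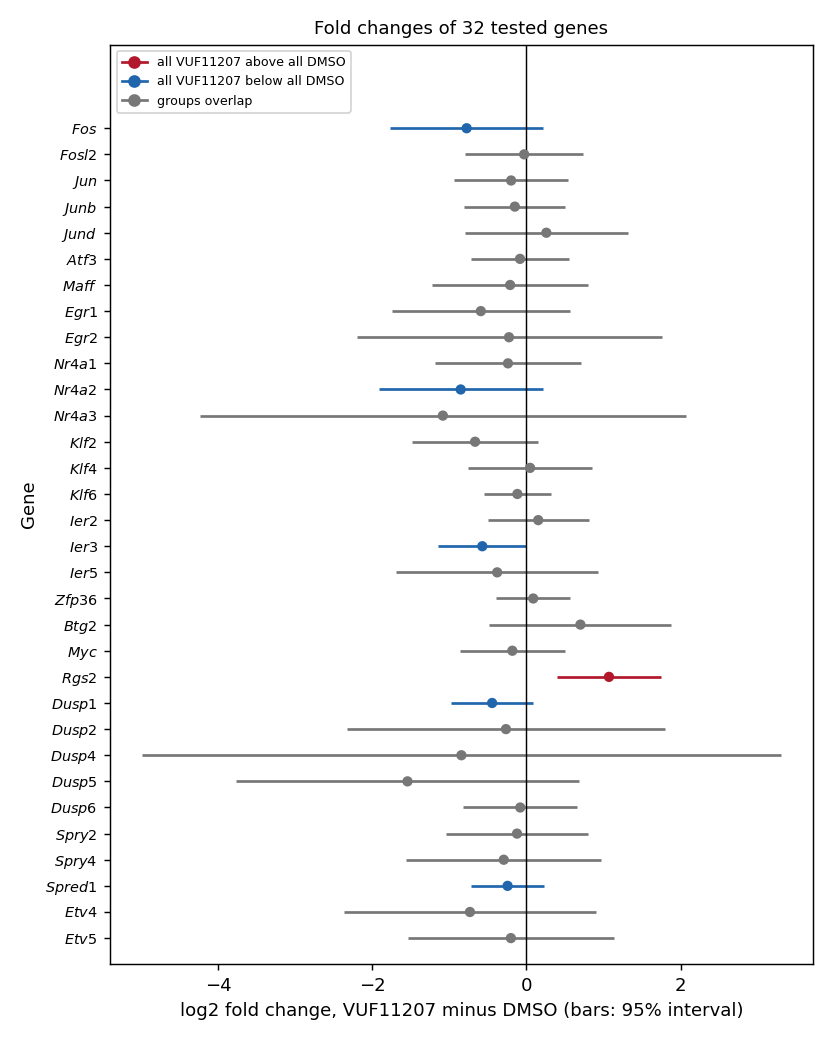
Log2 fold change (VUF11207 minus DMSO, horizontal axis) of the 32 tested genes from edgeR, with bars for the 95% interval. Rgs2 lies at 1.07 with an interval from 0.40 to 1.74, the interval of Ier3 ends just under 0, and the intervals of the other 30 genes hold 0.

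For 6 of the 32 tested genes the values of the groups did not overlap, 1 higher (Rgs2) and 5 lower (Fos, Nr4a2, Ier3, Dusp1 and Spred1) with VUF11207. This is 18.8% of the 32, beside 5.57% of all genes. The 5 lower genes are 15.6% beside 2.52%, and the 1 higher gene stands beside 3.05% of all genes. The filter keeps genes by their counts over all libraries, and 3 genes (Fosb, Fosl1 and Egr3) fell under it. With DESeq2's median ratio scaling the same 6 genes were separate, beside 5.49% of all genes (3.05% higher and 2.44% lower). With library totals only Rgs2 was separate, beside 2.01% of all genes in either direction and 1.88% higher, and 0 of the 32 were lower, beside 0.131%. The separation of the 5 lower genes thus depends on how vehicle replicate 2 is scaled, while that of Rgs2 was present under each of the 3 scalings.

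The gene Rgs2 (mm10, chr1:143999338-144004161, minus strand) encodes a regulator of G protein signalling that speeds the return of G alpha q to its inactive state, and it is itself induced by calcium, cAMP and growth signals. Its level was 111, 115 and 157 CPM with vehicle and 195, 298 and 311 CPM with VUF11207. Every VUF11207 library lay above every vehicle library, and VUF11207 replicate 1 was nearest to the vehicle range. Vehicle averaged 128 ± 25.1 CPM (SD, n = 3) against 268 ± 63.4 CPM (SD, n = 3) under VUF11207. Its log2 fold change was 1.07 ± 0.28 (SE), with an unadjusted edgeR p of 0.00714 and an adjusted p of 0.9999, so it did not pass over all genes. In DESeq2 the unadjusted p was 0.000459 and the adjusted p 0.482. Over the edgeR, DESeq2 and voom alternatives its adjusted p ran from 0.482 to 1, and without any single library the fold change stayed between 0.95 and 1.28. With TMM scaling, the summed CPM of 7 androgen-regulated prostate secretory genes (7 of 7 found, none at 0) had the same order of the libraries as Rgs2. It was 40400, 69100 and 77440 with vehicle and 82440, 107700 and 190100 with VUF11207. This order rests on the scaling. As shares of all counts the list took 5.375%, 2.94% and 9.52% with vehicle and 8.32%, 13.4% and 21.6% with VUF11207, so the groups overlapped. By the mean log2 level of these genes, which weights the 7 equally, the order also differed. Vehicle replicate 2 was the lowest (-0.78) and VUF11207 replicates 2 and 3 were the highest, both above 1. The part of secretory epithelium in the value of Rgs2 was not tested. The list of 12 Rgs genes had 8 tested members, and of the other 7 the smallest p belonged to Rgs3 (log2 fold change -0.35 ± 0.39, SE), Rgs4 (0.57 ± 0.74) and Rgs10 (-0.36 ± 0.67).

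Fos (chr12:85473890-85477273, plus strand), the AP-1 subunit that pairs with Jun proteins, was at 2.89, 2.32 and 2.88 CPM with vehicle and 1.39, 1.91 and 1.42 CPM with VUF11207. These levels rest on 33 to 89 counts per library. The log2 fold change was -0.78 ± 0.42 (SE), with an unadjusted edgeR p of 0.106. Ier3 (chr17:35821684-35822923, plus strand), an early response gene whose product modulates ERK signalling and cell survival, was at 11.5, 11.8 and 10.1 CPM with vehicle and 8.08, 8.32 and 6.02 CPM with VUF11207. The vehicle libraries lay close together, and VUF11207 replicate 3 was the lowest of all. Its log2 fold change was -0.57 ± 0.24 (SE), the unadjusted edgeR p was 0.0496 and the adjusted p 0.9999, and over the alternatives the fold change ran from -0.66 to -0.37.

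Nr4a2 (chr2:57106830-57124003, minus strand) encodes an orphan nuclear receptor that acts without a known ligand. It was at 5.99, 2.75 and 3.13 CPM with vehicle and 2.16, 2.31 and 2.10 CPM with VUF11207, so the groups were separate by a narrow gap and the unnumbered vehicle library stood above the rest. Its log2 fold change was -0.85 ± 0.45 (SE), and it was -0.42 without that library. Dusp1 (chr17:26505590-26562128, minus strand), a nuclear phosphatase of p38, JNK and ERK, was at 10.5, 12.5 and 12.4 CPM with vehicle and 7.91, 10.1 and 7.98 CPM with VUF11207, a log2 fold change of -0.45 ± 0.23 (SE). The gap between the groups was small, from 10.1 CPM in VUF11207 replicate 2 to 10.5 CPM in the unnumbered vehicle library. Spred1 (chr2:117121374-117182279, plus strand), an inhibitor of RAS to RAF signalling, was at 18.8, 19.7 and 20.7 CPM with vehicle and 17.9, 18.5 and 13.6 CPM with VUF11207. The estimate of -0.25 ± 0.20 (log2, SE) moved to -0.12 when VUF11207 replicate 3 was left out. Markers of neutrophils (7 of 7 found, 3 tested) summed to between 4.07 and 14.4 CPM with vehicle and between 0.473 and 2.82 CPM with VUF11207, and Cxcr2, Retnlg, Mmp8 and Ngp were at 0 in at least 1 library. Their part in the lower values of these 5 genes was not tested.

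**Figure D2:**
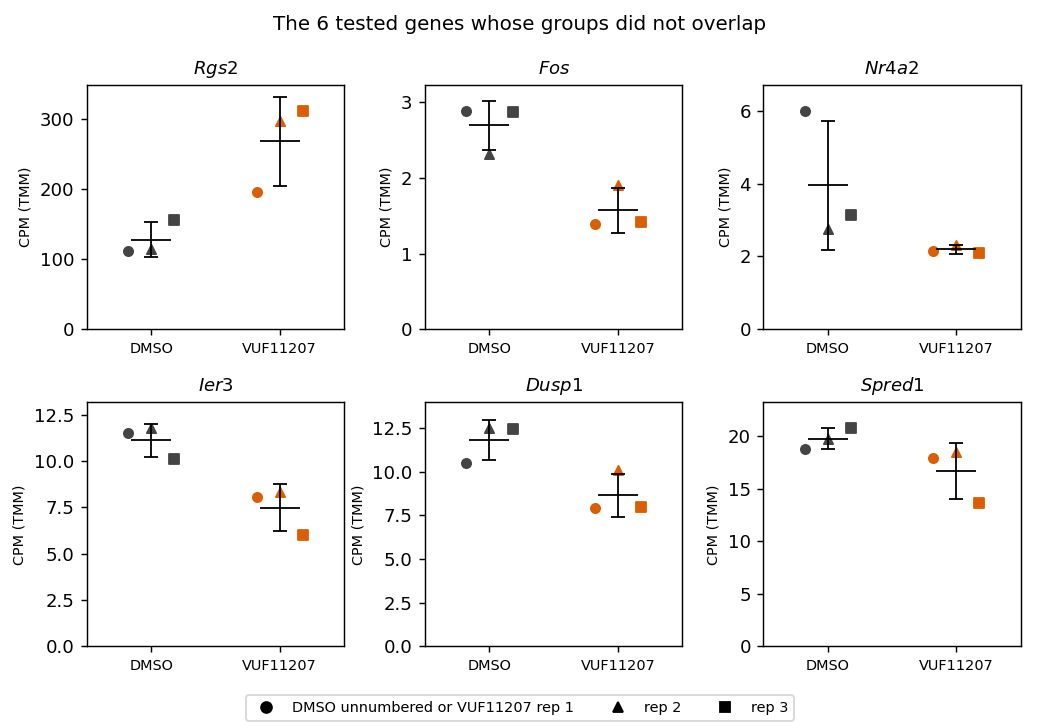
CPM (vertical axes, from 0) of the 6 tested genes whose groups did not overlap, by library, with horizontal marks for the group mean and bars for the SD (n = 3 each). Circles are the unnumbered DMSO library or VUF11207 replicate 1, triangles replicate 2 and squares replicate 3. Rgs2 was at 111 to 157 CPM with DMSO and 195 to 311 CPM with VUF11207, and the other 5 genes lay lower with VUF11207.

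Promoter sequence of RefSeq (build GRCm38.p6, the assembly of mm10) was matched by symbol for 27 of the 35 genes. None was matched for Egr1, Egr3, Etv4, Fosl1, Ier2, Myc, Spry4 and Dusp4, so these were not searched. Motifs were searched in the 250 bases before the RefSeq start. These bases are printed for the genes above other than Spred1, whose groups were nearest to each other, to show which early response motifs they share, and each stops where an exon of the gene begins in GENCODE. Capitals mark the core TGACG of the cAMP response element, which CREB and ATF factors bind, on either strand, and the CArG box of serum response factor.
Rgs2 (chr1:144004162-144004399, minus strand): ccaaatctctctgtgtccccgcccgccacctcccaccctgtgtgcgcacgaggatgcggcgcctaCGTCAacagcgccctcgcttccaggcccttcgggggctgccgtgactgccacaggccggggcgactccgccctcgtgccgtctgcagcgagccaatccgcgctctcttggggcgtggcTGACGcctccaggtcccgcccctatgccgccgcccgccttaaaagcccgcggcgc
Fos (chr12:85473640-85473889, plus strand): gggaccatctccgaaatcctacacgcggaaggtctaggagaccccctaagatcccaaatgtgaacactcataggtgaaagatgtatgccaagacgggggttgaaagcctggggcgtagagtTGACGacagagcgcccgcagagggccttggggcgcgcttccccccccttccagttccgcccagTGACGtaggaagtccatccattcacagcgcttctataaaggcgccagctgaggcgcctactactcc
Nr4a2 (chr2:57124004-57124253, minus strand): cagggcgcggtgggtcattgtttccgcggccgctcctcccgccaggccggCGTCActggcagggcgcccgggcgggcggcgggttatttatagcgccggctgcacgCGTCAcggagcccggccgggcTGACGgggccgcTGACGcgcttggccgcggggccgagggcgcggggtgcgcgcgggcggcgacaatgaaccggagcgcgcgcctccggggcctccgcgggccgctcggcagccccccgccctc
Dusp1 (chr17:26508520-26508722, minus strand): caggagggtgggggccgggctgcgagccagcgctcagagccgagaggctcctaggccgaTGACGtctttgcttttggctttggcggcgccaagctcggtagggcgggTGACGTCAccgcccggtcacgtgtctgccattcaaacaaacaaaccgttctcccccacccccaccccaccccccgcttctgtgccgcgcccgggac
Ier3 (chr17:35821463-35821683, plus strand): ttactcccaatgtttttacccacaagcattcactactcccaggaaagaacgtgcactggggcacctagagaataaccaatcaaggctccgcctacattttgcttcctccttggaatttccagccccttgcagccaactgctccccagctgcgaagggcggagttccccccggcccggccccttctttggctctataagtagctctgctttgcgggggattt
The promoters of Rgs2, Fos, Nr4a2 and Dusp1 hold TGACG, and that of Ier3 holds none of the marked motifs in this window. Dusp1 has the full palindrome TGACGTCA, which contains TGACG on both strands, from position -143 counted back from the start. Of the 27 matched genes 13 have TGACG in this window (48.2%), against 17.8% of 27025 promoters of the same length, 1 for each gene. The full TGACGTCA was found in 2 of 27 (Btg2 and Dusp1), against 1.60% of all promoters, and the CArG box in 2 of 27 (Dusp5 and Zfp36), against 1.41%. The Egr site GCGGGGGCG, searched on both strands, was found in 7 of 27 (25.9%), against 2.55% of all promoters. The AP-1 site TGAGTCA, also searched on both strands, was found in 0 of 27, against 4.43%. These matches describe the letters only.

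The widest variation among these genes ran between libraries within each group, in Nr4a3, Dusp4 and Dusp5. The SD of log2 CPM within groups placed Nr4a3 at the 98.1st percentile of all genes tested, Dusp4 at the 98.7th and Dusp5 at the 92.8th. No other member was above the 90th percentile, and 7 of the 32 were below the 20th. Nr4a3 (chr4:48045153-48086447, plus strand), a nuclear receptor of the same family as Nr4a2, was at 1.70, 74.8 and 32.2 CPM with vehicle and 40.4, 6.85 and 3.75 CPM with VUF11207. With TMM scaling its highest library was 43.9-fold above its lowest, and both were vehicle libraries. This fold rests on the scaling of vehicle replicate 2. That library had 1061 counts of Nr4a3, and VUF11207 replicate 1 had 1196 from fewer total counts. Dusp5 (chr19:53529109-53542431, plus strand), a nuclear phosphatase specific for ERK, was at 2.70, 15.8 and 14.2 CPM with vehicle and 8.32, 1.11 and 1.79 CPM with VUF11207. Dusp4 (chr8:34807297-34819894, plus strand), another nuclear MAPK phosphatase, was at 0, 5.00 and 1.29 CPM with vehicle and 2.94, 0.436 and 0.0676 CPM with VUF11207. Dusp4 had 0 counts in the unnumbered vehicle library. Against a floor of 3 counts there (0.111 CPM), its level in vehicle replicate 2 was at least 45.1-fold higher with TMM scaling. This fold also rests on the scaling of vehicle replicate 2, which had 71 counts of Dusp4, against 87 in VUF11207 replicate 1.

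All 3 of these genes were highest in vehicle replicates 2 and 3 and VUF11207 replicate 1. The same 3 libraries had the largest shares of seminal vesicle counts, at 64.5%, 16.3% and 28.1%, against 0.700% to 3.61% elsewhere. The mean log2 level of the seminal vesicle list did not rank the libraries alike, at -1.23 in vehicle replicate 3 and -0.63 in VUF11207 replicate 3. Vehicle replicate 3 and VUF11207 replicate 1 also had the highest skeletal muscle levels (3.65 and 3.82, mean log2 deviation over 10 of 10 markers, with Myh2 at 0 in at least 1 library). The part of either tissue in these values was not tested. The log2 fold changes were -1.09 ± 1.32 (SE) for Nr4a3, -0.85 ± 1.74 for Dusp4 and -1.54 ± 0.93 for Dusp5. With 1 library left out at a time they were lowest without VUF11207 replicate 1, at -2.76, -3.01 and -2.89. Their highest values with 1 library left out were 0.009, 0.82 and -1.11, without vehicle replicate 2 for Nr4a3 and Dusp4 and without VUF11207 replicate 2 for Dusp5.

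The promoters of Nr4a3 and Dusp5 are shown because these were the best counted of the widely varying genes, with the capitals as above. Dusp4 had no matched promoter.
Nr4a3 (chr4:48045055-48045152, plus strand): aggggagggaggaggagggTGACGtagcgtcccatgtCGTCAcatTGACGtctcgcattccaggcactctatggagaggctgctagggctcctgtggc
Dusp5 (chr19:53528895-53529108, plus strand): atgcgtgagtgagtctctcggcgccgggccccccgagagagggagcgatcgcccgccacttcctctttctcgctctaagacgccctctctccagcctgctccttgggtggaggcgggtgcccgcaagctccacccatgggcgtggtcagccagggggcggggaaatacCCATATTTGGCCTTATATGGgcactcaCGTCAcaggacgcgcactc
The window of Nr4a3 holds TGACG at 4 places, counting both strands, of which 3 lie in the bases printed. That of Dusp5 holds a pair of adjacent CArG boxes, from positions -82 and -72, and TGACG on the other strand from position -55.

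**Figure D3:**
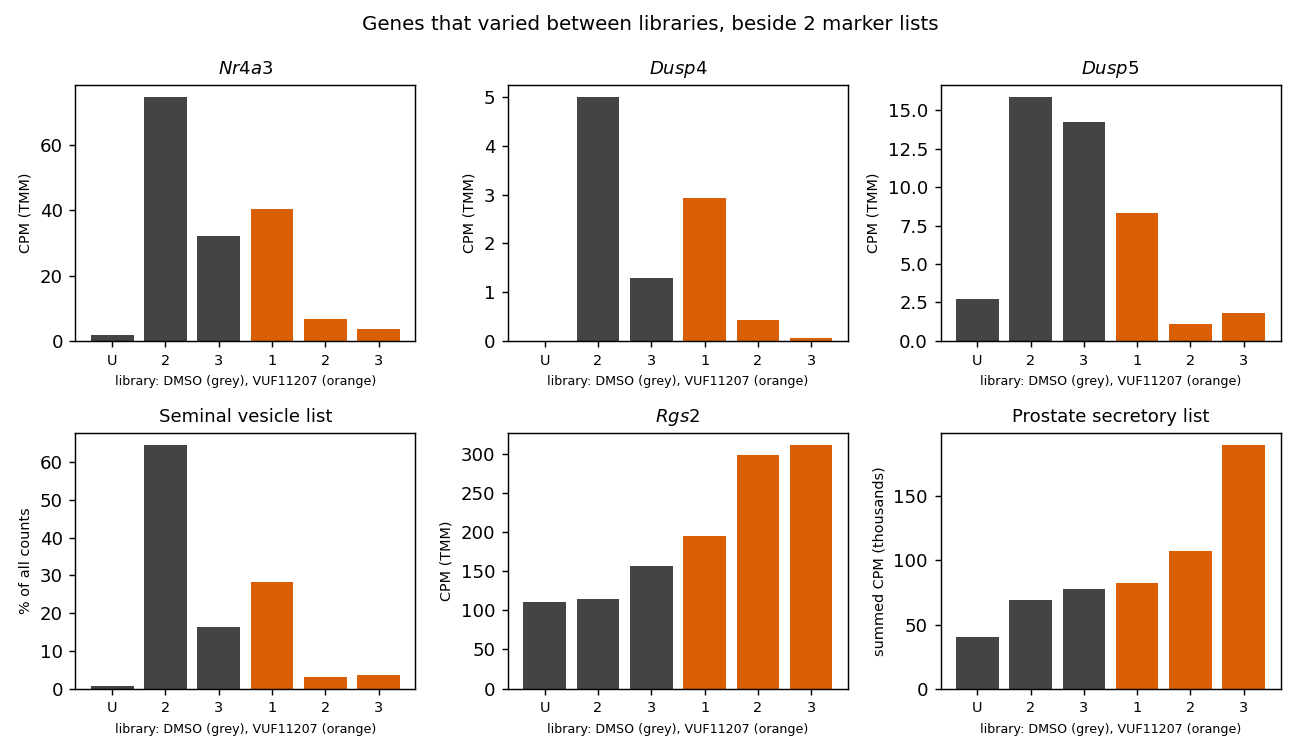
Bars show, for each library (U is the unnumbered DMSO library, grey is DMSO and orange is VUF11207), the CPM of Nr4a3, Dusp4, Dusp5 and Rgs2, the share of all counts taken by 9 seminal vesicle genes in percent, and the summed CPM of 7 prostate secretory genes. Nr4a3, Dusp4 and Dusp5 are tallest in the 3 libraries with the largest seminal vesicle share (64.5%, 28.1% and 16.3%). Rgs2 follows the order of the prostate secretory list in summed CPM, an order that rests on TMM scaling.

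Among the AP-1 genes Jund had the highest level. Per kilobase of exon, which allows genes to be compared, it averaged 111 CPM (range 45.4 to 150 over the 6 libraries), against 17.5 for Junb, 7.61 for Jun, 1.996 for Fosl2 and 0.907 for Fos. The ranges of Jund and Junb (12.1 to 23.2) did not overlap, and neither did those of Junb and Jun (4.14 to 9.16), nor those of Jun and Fosl2 (1.17 to 2.71), while those of Fosl2 and Fos (0.589 to 1.23) did. Jund, a broadly expressed Jun protein, was at 75.7, 210 and 221 CPM with vehicle and 213, 142 and 250 CPM with VUF11207. With TMM scaling the unnumbered vehicle library was the lowest, and the fold change was 0.26 ± 0.45 (log2, SE). That place rests on the scaling of vehicle replicate 2, which had 2980 counts of Jund from a total of 33368058. The unnumbered library had 2045 from a total of 20308018. Jun was at 28.3, 23.0 and 26.6 CPM with vehicle and 29.2, 25.4 and 13.2 CPM with VUF11207, low in VUF11207 replicate 3 alone. Junb was between 27.8 and 53.4 CPM and Fosl2 between 11.4 and 26.3 CPM, with overlapping groups in both. Fosb had 2 to 21 counts per library and Fosl1 at most 6, with 0, 0 and 1 counts with vehicle and 3, 6 and 1 with VUF11207, and both fell under the filter. Fitted with no filter on low counts, Fosb had a log2 fold change of 0.92 ± 0.98 (SE, unadjusted edgeR p of 0.378). That of Fosl1 was 2.74 ± 1.52 (SE, unadjusted edgeR p of 0.111, 95% interval from -0.79 to 6.27), a value that depends on the prior count because the vehicle libraries hold 1 count in all.

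The basic leucine zipper genes Atf3, a stress-induced partner of Jun, and Maff, a small Maf protein, had log2 fold changes of -0.08 ± 0.27 and -0.21 ± 0.43 (SE). Atf3 was between 12.6 and 22.5 CPM, with both ends in vehicle libraries. Reads of Jun, Junb, Jund, Zfp36, Atf3, Fosl1, Spry4, Dusp1 and Dusp5 could be shared with genes that overlap them in the GENCODE annotation (release M21), since the strand setting of the counting is not given in the sources used here. Among these partners are Prdx2 for Junb, Junos for Jun and Ergic1 for Dusp1.

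The zinc finger factors of the Egr family are induced through ERK and serum response factor. Egr1 was at 5.14, 3.10 and 4.49 CPM with vehicle and 2.10, 4.50 and 1.86 CPM with VUF11207. VUF11207 replicate 2 lay within the vehicle range and the other 2 VUF11207 libraries below it, and the log2 fold change was -0.59 ± 0.49 (SE). Egr2 ranged from 0.271 CPM in VUF11207 replicate 3 to 1.93 CPM in VUF11207 replicate 1, a span within the treated group that covered every vehicle value. Egr3 had 1 to 14 counts per library and fell under the filter, and with no filter its log2 fold change was 0.32 ± 1.20 (SE, unadjusted edgeR p of 0.795). Nr4a1, the third receptor of its family, was at 11.3, 9.44 and 14.0 CPM with vehicle and 15.8, 6.28 and 7.37 CPM with VUF11207. It did not share the pattern of Nr4a3 in the vehicle group, where its 3 values lay within 5 CPM of each other.

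The Kruppel-like factors differed in spread. Klf6, a widely expressed member, was at 58.3, 69.8 and 53.5 CPM with vehicle and 56.3, 59.3 and 51.6 CPM with VUF11207, and its within-group SD was at the 6.93rd percentile of all genes. Klf2, which is induced by shear stress in endothelium and marks quiescent T cells, was at 13.7, 22.6 and 10.7 CPM with vehicle and 11.2, 10.97 and 7.41 CPM with VUF11207. With TMM scaling vehicle replicate 2 stood above the others, and the log2 fold change of -0.67 ± 0.34 (SE) was -0.30 without that library. Its place rests on the scaling, since it had 321 counts of Klf2, against 370 in the unnumbered vehicle library with fewer total counts. With library totals alone the log2 fold change was -0.297. Endothelial markers (7 of 7 found, none at 0) summed to 28.8 to 64.2 CPM with vehicle and 22.5 to 41.0 CPM with VUF11207, and their part in the value of Klf2 was not tested. Klf4, a factor of epithelial differentiation, had a fold change of 0.05 ± 0.34 (log2, SE), and limma voom put it just below 0. In the list of 14 Klf genes 0 were called, 6 were positive and 8 negative, and of those outside the 35 the smallest p belonged to Klf8 (0.90 ± 0.50, log2 fold change, SE), Klf9 (0.33 ± 0.19) and Klf10 (-0.93 ± 0.53).

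Of the other early response genes, Btg2, an antiproliferative p53 target, was at 9.14, 29.7 and 33.9 CPM with vehicle and 42.3, 26.4 and 49.4 CPM with VUF11207. With TMM scaling the unnumbered vehicle library was far below the rest, and without it the log2 fold change went from 0.70 to 0.31. Its distance from vehicle replicate 2 rests on the scaling. These 2 libraries had 247 counts of Btg2 from a total of 20308018 and 422 from a total of 33368058. Zfp36, which promotes decay of cytokine mRNAs, was steady between 19.8 and 26.8 CPM, a fold change of 0.09 ± 0.20 (log2, SE). Ier2, an early response nuclear protein, was between 29.8 and 57.9 CPM, and Myc, the growth-promoting transcription factor, between 19.7 and 37.3 CPM, with log2 fold changes of 0.15 ± 0.27 and -0.18 ± 0.29 (SE). Ier5, which takes part in the heat shock response, was at 11.8, 5.57 and 5.53 CPM with vehicle and 5.00, 9.83 and 2.74 CPM with VUF11207.

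Dusp2, a phosphatase of activated lymphocytes and myeloid cells, was at 1.70, 0.423 and 0.485 CPM with vehicle and 0.372, 1.41 and 0.406 CPM with VUF11207. The unnumbered vehicle library and VUF11207 replicate 2 were high and the other 4 low, as was also seen for Ier5. T cell markers (6 of 7 found, none at 0) summed to 15.8, 5.14 and 9.05 CPM with vehicle and 5.31, 18.5 and 4.80 CPM with VUF11207, so the same 2 libraries were the highest. Macrophage markers were highest there too, at 351.8 and 218.8 CPM against 107.0 to 194.8 CPM elsewhere. The part of either cell type in the value of Dusp2 was not tested. Smooth muscle markers (8 of 8 found, none at 0) were also highest there, at 15680 and 19760 CPM against 4226 to 8749 CPM elsewhere. The log2 fold change of Dusp2 was -0.27 ± 0.87 (SE), and with 1 library left out it ran from -1.16 to 0.67.

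Dusp6, the cytoplasmic phosphatase of ERK, was at 11.6, 10.1 and 12.8 CPM with vehicle and 12.8, 13.0 and 6.73 CPM with VUF11207. Etv5, an ETS factor transcribed downstream of FGF and ERK signals, was at 4.22, 4.16 and 5.43 CPM with vehicle and 6.22, 4.40 and 1.39 CPM with VUF11207. In both, VUF11207 replicate 3 was the lowest library and the other VUF11207 libraries lay within or above the vehicle range. Etv4, a close relative, was between 0.420 and 1.70 CPM with a log2 fold change of -0.73 ± 0.69 (SE), which was -0.11 without the unnumbered vehicle library. Spry2, a RAS pathway inhibitor induced by growth factors, was at 4.37, 10 and 10.4 CPM with vehicle and 8.59, 8.05 and 6.09 CPM with VUF11207. Spry4, its relative, was low, at 0.637 to 0.986 CPM on 14 to 25 counts per library.

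Set against each other, the early response and feedback genes leaned the same way in the main fit. Of 24 tested early response genes 18 had a negative log2 fold change, with a median of -0.20. Of 8 feedback genes 8 did, with a median of -0.28, beside 55.3% negative over all genes. With library totals the counts were 13 of 24 and 6 of 8, beside 33.3% negative over all genes, and with limma voom 18 of 24 and 6 of 8, beside 52.5%. Without VUF11207 replicate 3 they were 15 of 24 and 5 of 8, with medians of -0.06 and -0.21, near the 54.7% negative over all genes. Without vehicle replicate 2 they were 14 of 24 and 6 of 8, beside 51.9%. With TMM scaling VUF11207 replicate 3 held the lowest value of 12 of the 32 tested genes and the unnumbered vehicle library that of 11. No other library held that of more than 3. These tallies and the deviations that follow rest on the scaling of vehicle replicate 2. That library had the most total counts, yet the fewest counts of Fos (33), Klf6 (990) and Rgs2 (1633). In VUF11207 replicate 3, 25 of 32 genes lay below their own mean over the libraries. The median deviation of the 24 early response genes was 0.13, 0.08 and 0.22 with vehicle and 0.003, -0.10 and -0.45 with VUF11207 (log2 CPM), and that of the 8 feedback genes was -0.01, 0.34 and 0.27 with vehicle and 0.08, 0.02 and -0.51 with VUF11207. By these medians VUF11207 replicates 1 and 2 lay near the mean and replicate 3 below it for both kinds of gene. By summed CPM, macrophage, neutrophil, T cell and smooth muscle markers were also lowest in VUF11207 replicate 3. Luminal epithelium (2733 CPM) and prostate secretory markers (190100 CPM) were highest in that library. These places rest in part on the scaling. As shares of all counts, macrophage, T cell and smooth muscle markers were lowest in vehicle replicate 2. Macrophage markers (8 of 8 found, none at 0) summed to 115.5 to 351.8 CPM with vehicle and 107.0 to 218.8 CPM with VUF11207, with 8 of 8 log2 fold changes negative, a median of -0.54 and 0 called. The mean log2 deviation in VUF11207 replicate 3 was -0.55 for macrophage, -1.46 for neutrophil and -0.97 for smooth muscle markers. Macrophage markers were nearly as low in VUF11207 replicate 1 (111.6 CPM) and vehicle replicate 2 (115.5 CPM), where the mean deviation of the 32 genes was 0.17 and 0.29. In the unnumbered vehicle library, with the most macrophage counts (351.8 CPM), it was -0.17. The part of these cell types in the lower values of VUF11207 replicate 3 was not tested.

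**Figure D4:**
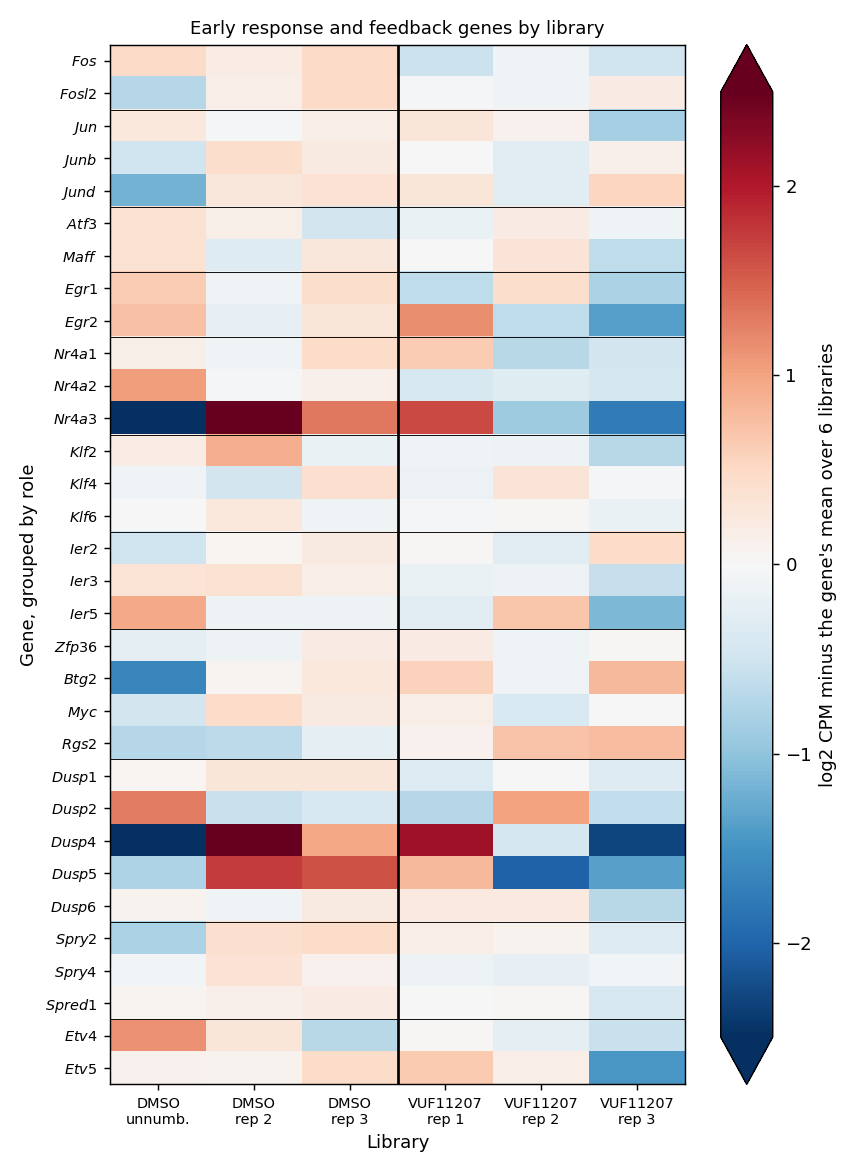
Each row is 1 of the 32 tested genes, grouped by role, and each column a library. Colour gives log2 CPM minus the gene's mean over the 6 libraries, from blue (lower) to red (higher), cut at 2.5 either way. Nr4a3, Dusp4 and Dusp5 show the deepest colours, in DMSO replicates 2 and 3 and VUF11207 replicate 1, and 25 of 32 rows are below their mean in VUF11207 replicate 3.

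The wider pathway showed no called gene either. A list of 40 other early response genes had 39 tested members, 0 called, 12 positive and 27 negative, with a median log2 fold change of -0.24, and 21 of 39 negative with library totals, beside 33.3% of all genes. Of that list Cited2, a transcriptional co-regulator induced by cytokines and hypoxia, had the smallest p. It was at 43.6, 38.6 and 57.6 CPM with vehicle and 81.3, 86.9 and 203 CPM with VUF11207, a log2 fold change of 1.41 ± 0.41 (SE) with an unadjusted edgeR p of 0.0109. Gadd45a, a stress-response gene, and Nfkbia, the inhibitor induced by NF-kB, followed at 0.98 ± 0.50 and -0.40 ± 0.22. Of 18 tested members in a list of 20 other feedback genes 9 were positive and 9 negative, with a median of 0.02, and Dusp14, Dusp3 and Rasa1 led by p with 0.78 ± 0.46, 0.36 ± 0.30 and -0.20 ± 0.19 (log2 fold change, SE). The 36 genes of the MAPK cascade itself, from receptors to kinases and Elk factors, had a median of -0.02, with 17 positive and 19 negative. With library totals 30 of the 36 were positive, with a median of 0.15, beside the 0.14 of all genes. Its smallest p belonged to Map2k2 (-0.44 ± 0.24), Map2k3 (-0.49 ± 0.31) and Nras (0.29 ± 0.22).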

How the data were processed

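The authors deposited raw read counts by gene symbol, and per the submitters' processing notes they used fastp, HISAT2, HTSeq and mm10. Annotation and strand setting of the counting: not given in the sources used here. Counts in the 5 libraries' own files were identical to the table, and 1 vehicle column matched no sample's own file. In edgeR 4.0.16, filterByExpr kept 13753 genes and TMM gave the scaling. Groups were compared by its quasi-likelihood test (robust, two-sided), with Benjamini-Hochberg adjustment over all genes and a threshold of 0.05. The procedure was tested on simulated data, which did not model differences in tissue content between libraries beyond each gene's spread. The F statistic of each gene gave the standard error and 95% interval. With 3 libraries against 3 an exact permutation test cannot go below 0.1, so none is given. Log2 CPM used a prior count of 2. Positions and exon lengths are from GENCODE M21, promoters from RefSeq (1 a gene, the most upstream start). The genes and lists were chosen with earlier results of these data known. All 35 genes are named, and of each pathway list the 3 others with the smallest p. Cell type lists were read as summed CPM. One such list is not reported here. Alternatives were DESeq2 1.42.0, voom in limma 3.58.1, other scaling and filters, the replicate number as a block and leaving out each library. Of these, a block that takes the unnumbered library as replicate 1 and a fit without the 2 libraries richest in seminal vesicle counts were chosen after seeing the data. R was version 4.3.3, Python version 3.11.15.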

Additional observations from a re-analysis of the deposited data

How the results depend on the processing

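The count of early response and feedback genes called was 0 under every alternative run (edgeR settings, DESeq2 and limma voom). Over all genes it was 0 except for 4 with DESeq2 and 3 with library totals. With each library left out in turn the count of all genes called was 0 throughout. The 445 fold changes recomputed for single genes kept the sign in 390 and changed it in 55, which concern 20 genes. Fos, Egr1, Nr4a2, Klf2, Ier3, Btg2, Rgs2, Dusp1, Dusp5, Spry4, Spred1 and Etv4 kept their sign in each alternative run. The cause of the sign changes was not tested.

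With limma voom the log2 fold change was 0.0602 for Fosl2, -0.000277 for Klf4, 0.33 for Dusp4 and 0.000124 for Spry2. With library totals the log2 fold change was 0.20 for Fosl2, 0.15 for Junb, 0.12 for Atf3, 0.13 for Klf6, 0.11 for Myc, 0.0566 for Dusp6 and 0.16 for Spry2. With the replicate number as a block (replicates 2 and 3) the log2 fold change was -0.18 for Jund, 0.21 for Atf3, -0.0155 for Ier2, -0.0657 for Zfp36 and 0.73 for Dusp2. With the block that takes the unnumbered library as replicate 1 the log2 fold change was 0.0452 for Fosl2. Without the 2 libraries with most seminal vesicle counts the log2 fold change was 0.0715 for Fosl2, 0.0525 for Junb, 0.0503 for Atf3, -0.0263 for Klf4, 0.0104 for Klf6 and -0.0206 for Zfp36. With 1 library left out, fold changes that crossed 0 ran from -0.30 to 0.25 for Fosl2, -0.40 to 0.0755 for Jun, -0.38 to 0.0589 for Junb, -0.0919 to 0.50 for Jund, -0.28 to 0.11 for Atf3, -0.45 to 0.0145 for Maff, -1.40 to 0.21 for Egr2, -0.74 to 0.000896 for Nr4a1, -2.76 to 0.00901 for Nr4a3, -0.13 to 0.32 for Klf4, -0.19 to 0.00583 for Klf6, -0.0651 to 0.31 for Ier2, -0.97 to 0.0802 for Ier5, -0.40 to 0.0278 for Myc, -1.16 to 0.67 for Dusp2, -3.01 to 0.82 for Dusp4, -0.23 to 0.17 for Dusp6, -0.43 to 0.0841 for Spry2 and -0.65 to 0.21 for Etv5. No pairing by replicate number was seen, though 3 libraries per group cannot show that the samples were unpaired. With the unnumbered library taken as replicate 1, the correlations of the deviations from the group means across genes were -0.59, -0.33 and 0.05 for the 3 numbers, and the block called 0 genes. In the block fit of replicates 2 and 3, which uses 4 libraries, the log2 fold changes of Nr4a3, Dusp4 and Dusp5 were -3.26, -3.76 and -3.39, with adjusted edgeR p of 0.213, 0.461 and 0.213. Fosb, Fosl1 and Egr3 had at most 21 counts in any library, which limits their precision.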

Other observations

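Genes next to the receptor and genes of the heat shock response were also read, from lists of 5 and 10 genes. Arrb2, which encodes a beta-arrestin that CXCR7 recruits, had the smallest p of the 5. It was at 37.6, 45.6 and 30.1 CPM with vehicle (unnumbered library, replicates 2 and 3) and 24.4, 29.2 and 24.4 CPM with VUF11207 (replicates 1, 2 and 3). With TMM scaling the groups did not overlap, as for 2.52% of all genes in the lower direction. This rests on the scaling of vehicle replicate 2, and with library totals the groups overlap, where 0.131% of all genes were separate and lower. The log2 fold change of Arrb2 was -0.54 ± 0.21 (SE), with an unadjusted edgeR p of 0.0403 and an adjusted p of 0.9999. Arrb1, the other beta-arrestin gene, had a log2 fold change of -0.90 ± 0.44 (SE) with overlapping groups. Of the 10 heat shock genes, which respond to the stress of tissue handling, 0 were called, 5 were positive and 5 negative, with a median of -0.01. Hsph1, Hspb1 and Hspa8, which encode chaperones, led by p with log2 fold changes of -0.38 ± 0.22, 0.42 ± 0.25 and -0.35 ± 0.27 (SE). The mean log2 deviation of the heat shock list lay between -0.09 and 0.12 in all 6 libraries.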
